A study of Bos taurus with 12 samples.

Results

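The 10 genes described here encode proteins of mitochondrial fusion (MFN1, MFN2 and OPA1), of mitochondrial fission (DNM1L, FIS1 and MFF), and of mitochondrial biogenesis and mitochondrial DNA maintenance (TFAM, NRF1, PPARGC1A and POLG). They were taken by symbol from a count table of 18057 gene rows, and each symbol matched 1 row. The tissue was the bovine cumulus-oocyte complex, an oocyte with its surrounding cumulus cells, which is the unit that is matured in culture before fertilisation. Nanoplastics complexes were matured in vitro with polystyrene particles of 50 nm at 3 µg/mL, and Control complexes in the same way without particles. Each group had 6 libraries, each made from polyA RNA of 50 complexes. The material came from 3 batches, and which library belongs to which batch was not known here.

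Mitochondria continually fuse and divide. The mitofusins MFN1 and MFN2 join outer membranes and OPA1 joins inner membranes, while the GTPase DNM1L is recruited to the outer membrane by receptors such as MFF and constricts the organelle. New mitochondria require nuclear genes whose promoters are bound by NRF1 and whose transcription is raised by the coactivator PPARGC1A (PGC-1α), and they require mitochondrial DNA to be packaged and transcribed with TFAM and copied by the polymerase POLG. A mammalian oocyte holds a very large store of mitochondria and mitochondrial DNA, which the early embryo inherits before its own mitochondrial replication starts. Cumulus cells supply the oocyte with pyruvate and other metabolites through gap junctions.

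The Nanoplastics libraries held 14167578 to 18684140 counts (median 18156836) and the Control libraries 15873865 to 20008464 (median 17011108). All 18 markers of cumulus and granulosa cells were tested, and together they held 20363 to 22951 CPM (counts scaled to a library of 1000000) in Nanoplastics and 20196 to 22431 in Control libraries. Of 26 oocyte marker rows found, 22 were tested and 1 was at 0 in every library. All rows found held 1140 to 1568 CPM in Nanoplastics and 1255 to 1693 CPM in Control libraries. The 12 leukocyte markers, of which 6 were tested and 1 was at 0, held 7.81 to 17.7 CPM in Nanoplastics and 7.13 to 11.9 CPM in Control libraries. The 12 theca and stromal markers held 1615 to 1831 CPM in Nanoplastics and 1354 to 1983 CPM in Control libraries. Of the 10 that were tested, 9 had a positive log2 fold change, Nanoplastics over Control, and 3 collagens had an unadjusted p under 0.05, beside 2.1% of all genes. These were COL6A3 (1.88), COL1A2 (2.19) and COL3A1 (1.06), all at low levels and with an adjusted p of 0.999, and their part in the values of the 10 genes was not tested. The 10 endothelial markers, of which 6 were tested, held 51.8 to 66.5 CPM in Nanoplastics and 53.4 to 67.7 CPM in Control libraries. In RNA of whole complexes, fewer cells of a type and less RNA per cell cannot be told apart.

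No difference between Nanoplastics and Control complexes passed the test for any of the 10 genes. The adjusted p was 0.999 for each of them (edgeR's quasi-likelihood test, Benjamini-Hochberg adjustment over 12311 genes), beside a background of 0% of genes called. At an unadjusted p under 0.05 the count was 0 of 10 genes, and it was 259 of all genes (2.1%). The log2 fold changes, Nanoplastics over Control, were positive for 6 of the 10 genes and negative for 4, with a median of 0.016. Over all genes tested, 6217 were positive and 6094 negative, with a median of 0.001. In 9 of all genes (0.0731%) the 6 Nanoplastics libraries all lay on one side of the 6 Control libraries, and none of these was among the 10.

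The levels of the fusion genes overlapped between the groups. MFN1, a GTPase that tethers the outer membranes of neighbouring mitochondria, had 75.8, 79.9 and 90.2 CPM (lowest, median and highest) in Nanoplastics libraries and 71.2, 76.3 and 96.1 CPM in Control libraries. All 6 Nanoplastics libraries lay inside the Control range, whose top was Control 5. The log2 fold change of MFN1 was 0.03 (SE 0.08, 95% interval -0.13 to 0.20). MFN2, the second mitofusin, which also sits at contacts between mitochondria and the endoplasmic reticulum, averaged 63.5 ± 3.53 CPM in Nanoplastics and 63.5 ± 3.31 CPM in Control libraries (SD, n = 6 each). Its Nanoplastics libraries spanned 58.1 to 66.5 CPM and its Control libraries 59.8 to 68.2 CPM, so that 5 Nanoplastics libraries lay inside the Control range and 1 below it. OPA1, the inner membrane GTPase that also holds cristae junctions closed, averaged 83.4 ± 4.28 CPM in Nanoplastics and 82.0 ± 5.41 CPM in Control libraries (SD, n = 6 each). Its log2 fold change was 0.02 (SE 0.06, 95% interval -0.10 to 0.15), and all 6 Nanoplastics libraries lay inside the Control range.

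**Figure D1:**
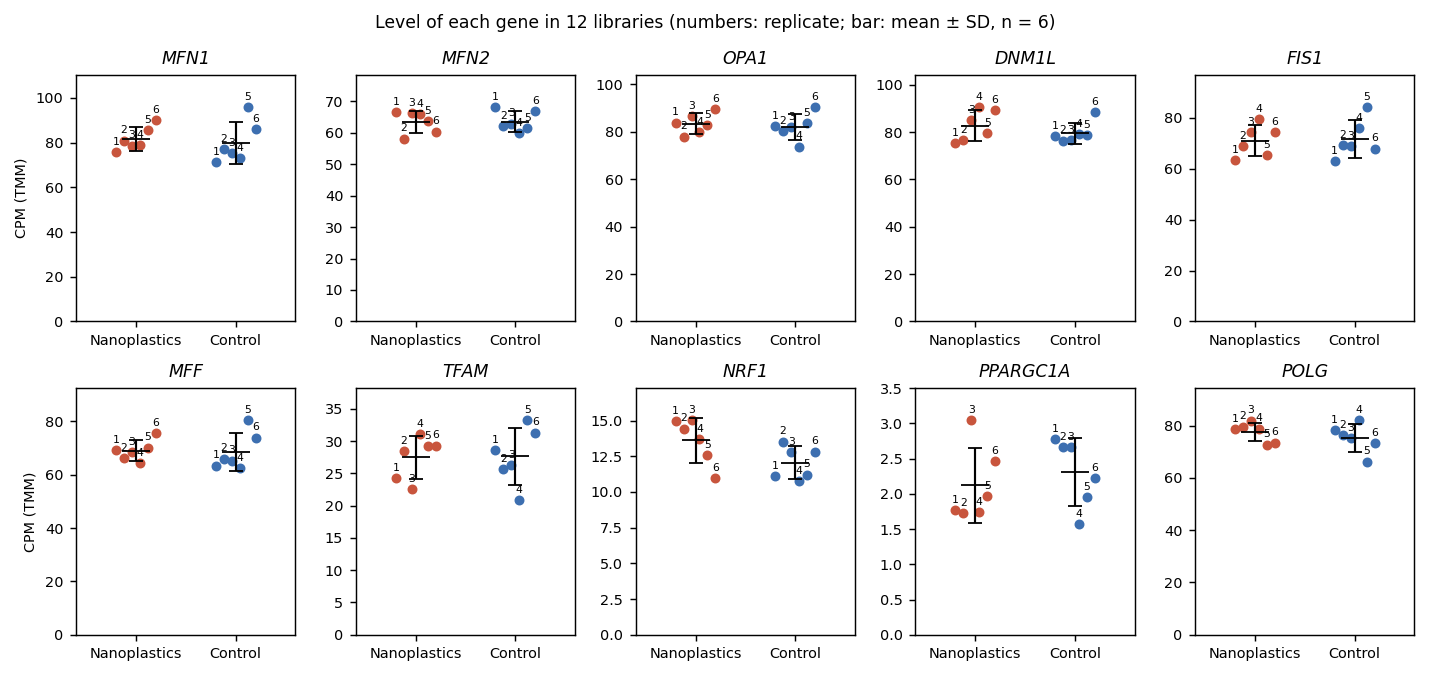
Level of each of the 10 genes in CPM, with 1 panel per gene, Nanoplastics libraries left of Control libraries, 1 point per library, and the mean with its SD. The groups overlap in every panel, and Control 5 is the highest library for MFN1, FIS1, MFF and TFAM and the lowest for POLG.

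Of the fission genes, DNM1L, the dynamin-related GTPase that severs mitochondria, had 75.2, 82.3 and 90.7 CPM (lowest, median and highest) in Nanoplastics libraries and 76.4, 78.5 and 88.3 CPM in Control libraries. In Nanoplastics libraries 2 values lay above the Control range and 1 below it. Its log2 fold change was 0.06 (SE 0.06, 95% interval -0.08 to 0.19). FIS1, an outer membrane protein that in yeast recruits the dynamin homologue, averaged 71.0 ± 6.13 CPM in Nanoplastics and 71.6 ± 7.52 CPM in Control libraries (SD, n = 6 each). Its Nanoplastics libraries lay between 63.3 and 79.5 CPM, inside the Control range of 63.0 to 84.4 CPM. MFF, the tail-anchored receptor that recruits DNM1L in mammals, averaged 69.0 ± 3.83 CPM in Nanoplastics and 68.6 ± 7.11 CPM in Control libraries (SD, n = 6 each). The MFF range was 64.4 to 75.5 CPM in Nanoplastics and 62.3 to 80.5 CPM in Control libraries, and the wider Control range again ended in Control 5.

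Of the biogenesis genes, NRF1 had the smallest p of the 10. NRF1, a transcription factor of nuclear genes for respiratory subunits, had 14.97, 14.4, 15.04, 13.7, 12.6 and 10.95 CPM in Nanoplastics libraries 1 to 6, and 11.1, 13.5, 12.8, 10.8, 11.2 and 12.8 CPM in Control libraries 1 to 6. The 4 highest Nanoplastics values lay above every Control value, and the lowest, in Nanoplastics 6, lay near the lowest Control value. The log2 fold change of NRF1 was 0.18 (SE 0.10, 95% interval -0.04 to 0.39, unadjusted p = 0.0997, adjusted p = 0.999). It was positive under each of 19 alternative settings, from 0.14 to 0.23, and did not pass the test in any of them.

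PPARGC1A was sparse, at 25 to 53 counts per library. It had 1.77, 1.73, 3.05, 1.74, 1.96 and 2.47 CPM in Nanoplastics libraries 1 to 6, and 2.78, 2.67, 2.66, 1.57, 1.95 and 2.22 CPM in Control libraries 1 to 6. The highest value and 4 of the 6 lowest values were in Nanoplastics libraries. The log2 fold change was -0.13 (SE 0.20, 95% interval -0.56 to 0.30). With 1 library left out it ran from -0.26 (without Nanoplastics 3) to -0.073 (without Control 1). Counting error alone gives a coefficient of variation of 16.2% at this depth, beside 25.2% between the Nanoplastics and 20.7% between the Control libraries.

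Neither gene for a mitochondrial DNA protein passed the test. TFAM, which coats mitochondrial DNA and starts its transcription, averaged 27.5 ± 3.30 CPM in Nanoplastics and 27.7 ± 4.40 CPM in Control libraries (SD, n = 6 each). The TFAM range was 22.6 to 31.1 CPM in Nanoplastics and 20.9 to 33.3 CPM in Control libraries. POLG, the catalytic subunit of the mitochondrial DNA polymerase, averaged 77.6 ± 3.62 CPM in Nanoplastics and 75.2 ± 5.33 CPM in Control libraries (SD, n = 6 each). Its log2 fold change was 0.04 (SE 0.06, 95% interval -0.09 to 0.17), 0.0053 without Control 5 and 0.070 without Control 4. The share of counts from the 13 mitochondrially encoded messages, the transcripts these proteins serve, was 2.04% ± 0.192 in Nanoplastics and 2.15% ± 0.219 in Control libraries (SD, n = 6 each). By an exact two-sided permutation test this gave p = 0.372, and 0.866 adjusted over 4 library measures.

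The data set narrow limits on a change of these genes. The 95% interval of 8 of the 10 lay wholly within 1.25-fold in either direction, beside 56.8% of all genes tested, and those of NRF1 and PPARGC1A did not. All 10 intervals lay within 1.5-fold, beside 83.3% of genes. Neither share is matched for abundance. The contrast between the groups in the authors' deposited table covered all 10 genes among 11416, with an adjusted p of 0.99993. In the authors' deposited table the log2 fold change of NRF1 was 0.17 and that of PPARGC1A was -0.14, and the 10 values had the signs of the edgeR fit, with a largest difference of 0.0052. Both come from the same counts.

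**Figure D2:**
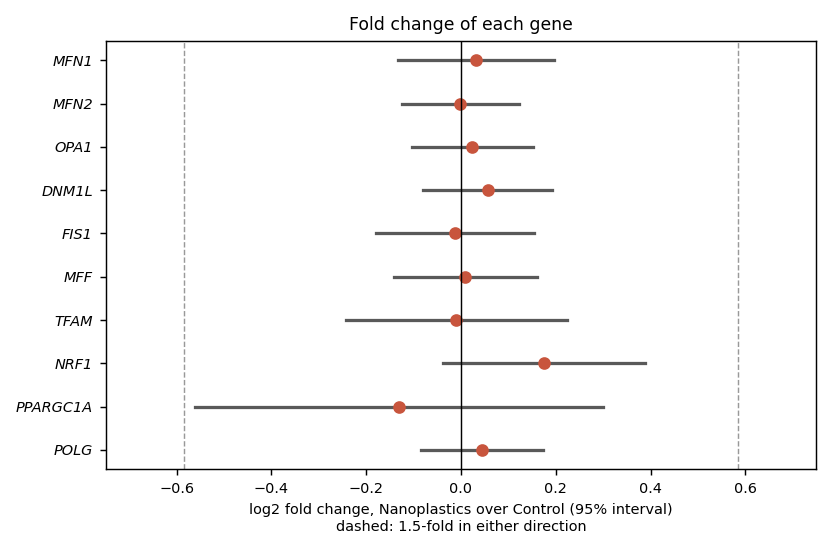
Log2 fold change of each gene, Nanoplastics over Control, with its 95% interval from the edgeR fit and dashed lines at 1.5-fold in either direction. Every interval includes 0, and PPARGC1A has the widest, from -0.56 to 0.30.

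Behind these limits lies a small spread between libraries of the same group. The within-group SD on the log2 scale was 0.078 for MFN2, 0.085 for OPA1 and 0.088 for POLG, which ranks them at percentiles 3.95, 5.87 and 6.83 of all genes tested, counted from the steadiest. At the other end were TFAM with 0.210 (percentile 60.3) and PPARGC1A with 0.312 (percentile 79.5). Among genes of similar abundance these ranks shift, to percentile 77.0 for TFAM, 25.3 for PPARGC1A and 7.58 for MFN2. MFN1 moved from percentile 27.7 to 49.7, FIS1 from 29.4 to 53.9 and MFF from 19.3 to 35.3. By the same measure OPA1 was at 10.8, POLG at 14.6, DNM1L at 21.2 and NRF1 at 23.6. Without regard to abundance, the spread lay below the median of all genes tested, 0.180, for 8 of the 10. The highest library exceeded the lowest by 1.17 times for MFN2 and by 1.94 times for PPARGC1A, over all 12 libraries.

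The genes that act beside these 10 were examined in 9 lists with 145 tested genes. None passed the test, 65 had positive and 80 negative log2 fold changes (median -0.008), and 2 had an unadjusted p under 0.05 (1.38%, beside 2.1% of all genes). One of these was CLPP, a matrix protease, with 50.3 ± 2.13 CPM in Nanoplastics and 46.3 ± 2.10 CPM in Control libraries (SD, n = 6 each) and a log2 fold change of 0.12. The other was GDAP1, a fission factor of the outer membrane, with 2.21 ± 0.412 CPM in Nanoplastics and 2.96 ± 0.60 CPM in Control libraries and a log2 fold change of -0.42. For both the adjusted p missed the threshold.

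The partners of fusion and fission had values on both sides of 0. Among proteases and accessory proteins of fusion, 8 of 15 log2 fold changes were positive and 7 negative, and the most abundant member was the protease LONP1 with a log2 fold change of 0.22 (SE 0.19). Among adaptors and regulators of DNM1L, 7 of 19 were positive and 12 negative, with the abundant MTFR2 at -0.04. Of the MICOS and cristae proteins 4 were positive and 7 negative. The structural subunit IMMT of that complex had a log2 fold change of 0.001 and the small subunit MICOS10 one of -0.25.

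Of the coactivators and nuclear factors of biogenesis, 13 were positive and 9 negative. NCOR1, a corepressor and the most abundant of them, had a log2 fold change of -0.06. PPARGC1B, the closest relative of PPARGC1A, had one of -0.36 (SE 0.21) at about 1 CPM in both groups. Of the proteins for replication, nucleotide supply and transcription of mitochondrial DNA, 7 were positive and 17 negative, with a median of -0.035. The mitochondrial RNA-binding protein LRPPRC was at -0.03 and the deoxyguanosine kinase DGUOK at -0.11. Of the 13 mitochondrially encoded messages 4 were positive and 9 negative, with COX1 at -0.04 and ATP8 at -0.26. Mitophagy genes gave 9 positive and 8 negative values, with the kinase ULK1 at 0.05. Transport genes gave 6 and 3, with the kinesin KIF5B at -0.06 and its adaptor TRAK2 at -0.10. Import, porin and chaperone genes listed for mitochondrial mass gave 7 and 8. The porin VDAC2 was at 0.29 and the import channel TIMM23 at -0.16. Whether these genes follow that mass was not tested.

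Among themselves the 10 genes had no common direction across the 12 libraries. Over the 45 pairs, Pearson's r of log2 CPM ranged from -0.82 to 0.92, with a median of 0.07 and 26 positive pairs, beside a median of -0.001 over all pairs of tested genes. MFN1 and MFF were high in the same libraries, with r = 0.92 and rho = 0.86 (permutation p = 5e-05, 0.0428 adjusted over all genes paired with MFN1, of which 0.918% passed; for rho the adjusted p was 0.149). Without the 2 libraries farthest from the median of MFN1, Nanoplastics 6 and Control 5, r was 0.80. Within the groups it was 0.72 in Nanoplastics and 0.99 in Control libraries.

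POLG ran the other way. It had r = -0.80 and rho = -0.60 with MFN1 (permutation p = 0.00185, 0.0707 adjusted over all genes). With MFF it had r = -0.82 and rho = -0.69 (adjusted permutation p = 0.0661, beside 1.35% of genes that passed with MFF). Without Control 5 these became -0.65 for both pairs. With libraries scaled to their total counts only, without edgeR's TMM factors, they were -0.58 with MFN1 and -0.63 with MFF. Control 5 had 96.1 CPM of MFN1, 80.5 of MFF and 66.2 of POLG, each the most extreme value of the 12 libraries. The ratio of MFN1 to POLG counts was 0.961 to 1.23 in Nanoplastics libraries and 0.891 to 1.45 in Control libraries, with a median of 1.01 in both groups. TFAM was higher where MFN1 was higher (r = 0.66, rho = 0.73) and where POLG was lower (r = -0.73, rho = -0.73), and neither relation passed adjustment over all genes (permutation p = 0.280 and 0.226 adjusted).

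**Figure D3:**
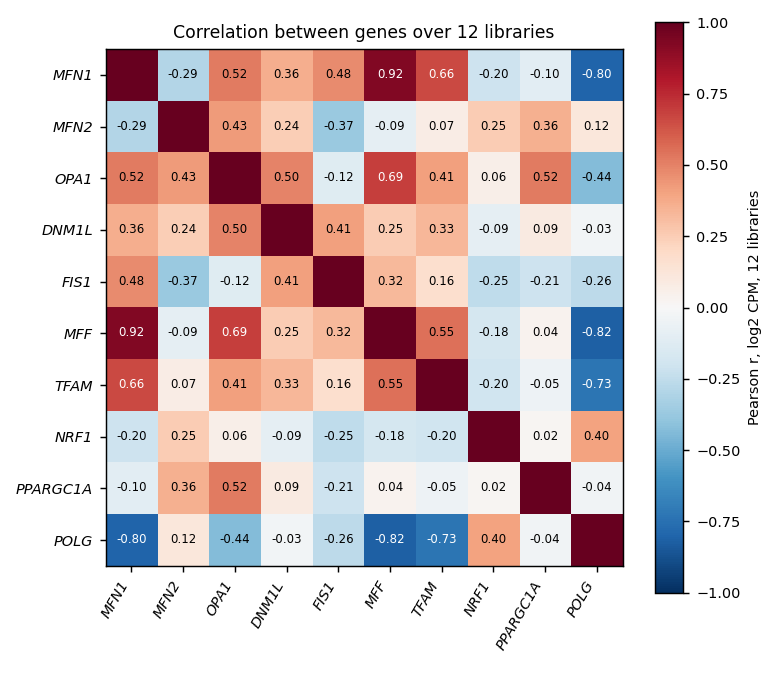
Pearson's r of log2 CPM over 12 libraries for each of the 45 pairs of the 10 genes. MFN1 and MFF have the highest value, 0.92, and POLG has negative values with MFN1, MFF and TFAM down to -0.82.

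**Figure D4:**
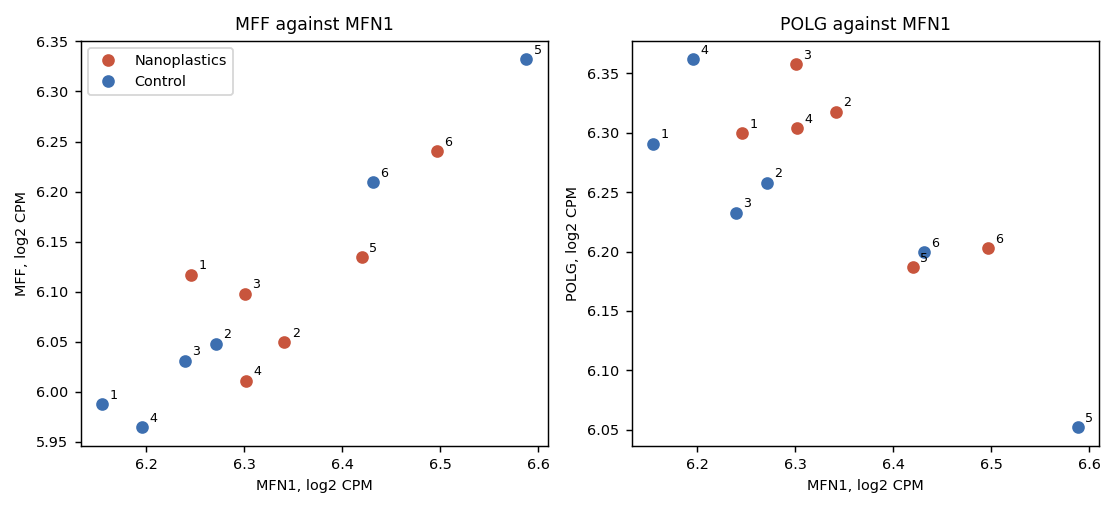
Log2 CPM of MFN1 (horizontal axis) against that of MFF and of POLG (vertical axes), 1 point per library, coloured by group. MFF is higher and POLG lower in the libraries with more MFN1, and Control 5 is at the end of both clouds.

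The nearest neighbour among the other 12310 genes, by r over 12 libraries, is given for 9 of the 10. It was CLGN for MFN1 (r = 0.93), ZNF514 for MFN2 (0.80), TDG for OPA1 (0.91), FANCD2 for DNM1L (0.89), IQCC for FIS1 (0.94), ALG10 for TFAM (0.95), PLEKHA8 for NRF1 (0.92), RAP1GAP2 for PPARGC1A (0.90) and EHMT1 for POLG (0.95). No 2 of these genes shared a neighbour, and none had another of the 10 as its nearest. Each r is the highest of 12310 values over 12 libraries and is given without a test. Of these neighbours, ZNF514 averaged only 9.3 counts per library and RAP1GAP2 13.75.

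Within both groups the libraries also differed in genes known to be induced by low oxygen. This oxygen response was scored as the mean log2 CPM of 17 genes, among them VEGFA, SLC2A1 and LDHA, and averaged 6.52 ± 1.12 in Nanoplastics and 6.06 ± 0.89 in Control libraries (SD, n = 6 each; exact two-sided permutation p = 0.433, 0.866 adjusted over 4 measures). With the group in the model, 1668 of 12311 genes (13.5%) followed the score at an adjusted p under 0.05, 8.83% upwards and 4.72% downwards, and none of the 10 did. The 1668 include genes of the score itself, of which 15 of 17 passed, all upwards. The slopes of the 10 genes, in log2 units per log2 unit of score, were negative for 9 and positive for NRF1 (0.07, SE 0.05). That of POLG was -0.00089 and was positive under 7 of 17 alternative settings. Those of MFN1 (-0.016, SE 0.041), MFN2 (-0.011, SE 0.031), OPA1 (-0.0069, SE 0.032) and MFF (-0.0080, SE 0.038) were smaller than their SEs. Each of these was positive under 1 or 2 settings. The share of negative slopes over all genes was not computed. Without Nanoplastics 1 the count over all genes was 762. The red blood cell markers, with 2 of 7 rows tested and 3 at 0, held 3.81 to 329 CPM in Nanoplastics and 2.79 to 103 CPM in Control libraries. Of them the hemoglobin gene HBA moved with the score with a slope of 2.66, and 7 of the 22 oocyte markers ran against it. The part of red blood cells or of the oocyte in these slopes was not tested.

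FIS1 came nearest to a call. Its slope was -0.08 (SE 0.04, 95% interval -0.16 to -0.01, adjusted p = 0.142), and it was -0.13 with an adjusted p of 0.0086 once Control 1 was left out. Its correlation with the score was r = -0.58 and rho = -0.47 (permutation p = 0.0506, 0.166 adjusted over all genes, of which 15.1% passed). Within the groups r was -0.94 in Nanoplastics and -0.23 in Control libraries. In a fit added after the data were seen, the slope of FIS1 in Nanoplastics minus that in Control libraries was -0.06 (SE 0.08). By edgeR's quasi-likelihood test this gave an unadjusted p of 0.436 and an adjusted p of 0.991. The difference ran from -0.15 to 0.059 with 1 library left out. Control 1, with the lowest score of all (4.93), also had the lowest FIS1 (63.0 CPM), and without it and Nanoplastics 1, the libraries farthest from the median score, r was -0.90. In Nanoplastics libraries 1, 2 and 5, whose scores were 7.86, 7.34 and 7.36, FIS1 had 63.3, 68.9 and 65.5 CPM. In Nanoplastics libraries 3, 4 and 6, whose scores were 5.42, 5.44 and 5.67, it had 74.4, 79.5 and 74.2 CPM. The Nanoplastics scores thus fell into 2 sets with a gap between them, and FIS1 was lower in every library of the higher set. In Control libraries 1 to 6, with scores of 4.93, 7.08, 6.44, 5.87, 5.17 and 6.86, FIS1 had 63.0, 69.3, 69.0, 76.0, 84.4 and 67.9 CPM, with both the lowest and the highest value at the 2 lowest scores.

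DNM1L was split in the same way among the Nanoplastics libraries. It had 75.2, 76.6 and 79.6 CPM in libraries 1, 2 and 5 and 84.9, 90.7 and 89.3 CPM in libraries 3, 4 and 6. In Control libraries it lay between 76.4 and 79.1 CPM in 5 libraries at scores of 4.93 to 7.08, with 88.3 CPM in Control 6 at a score of 6.86. The slope of DNM1L was -0.10 in Nanoplastics and 0.02 in Control libraries, a difference of -0.12 (SE 0.06, unadjusted p = 0.0653, adjusted p = 0.920), in a fit added after the data were seen. No gene passed that test (0%), and 5.32% of all genes had an unadjusted p under 0.05. The mean log2 CPM of the mitochondrially encoded messages split the Nanoplastics libraries in the same way. It was 9.69, 9.76 and 9.72 in libraries 1, 2 and 5, and 9.85, 9.89 and 10.003 in libraries 3, 4 and 6. Its r with DNM1L was 0.90 in Nanoplastics and 0.50 in Control libraries, and with FIS1 0.83 and 0.48. Whether these genes follow this mean or the oxygen score was not tested. The share of all genes with this split was not computed.

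**Figure D5:**
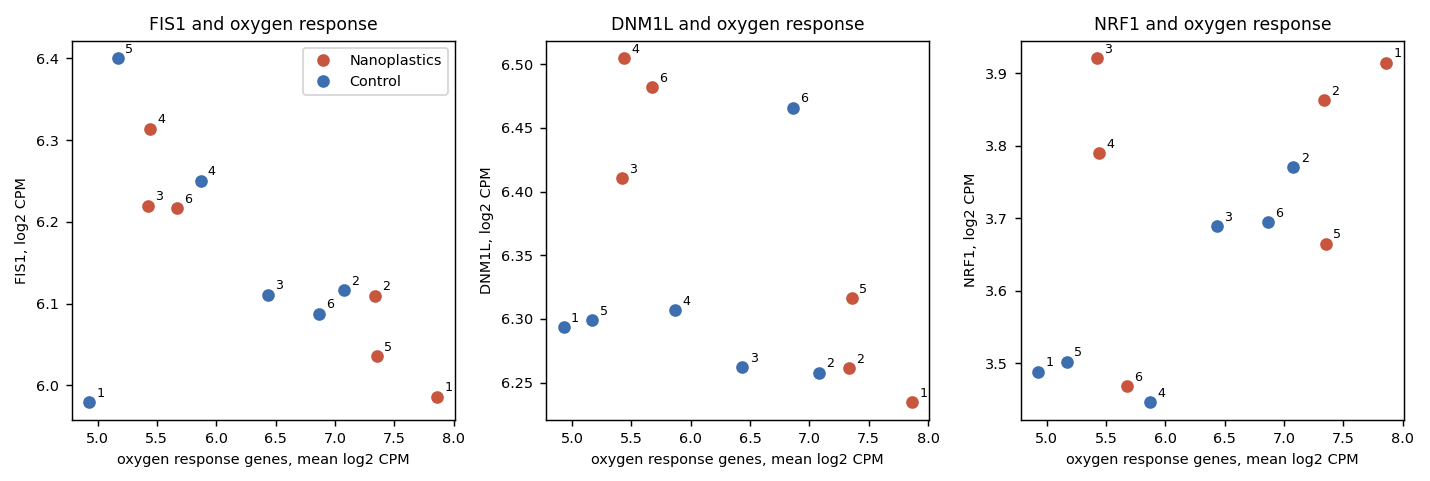
Log2 CPM of FIS1, DNM1L and NRF1 (vertical axes) against the oxygen response score, a mean log2 CPM (horizontal axis), 1 point per library, coloured by group. The Nanoplastics libraries with scores above 7 have less FIS1 and less DNM1L than those with scores below 6, while the Control libraries lie between 4.93 and 7.08 with no such split for DNM1L.

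Of the 145 genes in the lists, 9 rose and 15 fell with the score. Of all genes, 8.83% rose and 4.72% fell, so more list genes fell than rose, while over all genes more rose. Both directions together are 16.6% of the list genes, beside 13.5% of all genes. The mitophagy receptors BNIP3 (slope 1.21, SE 0.04) and BNIP3L (0.24, SE 0.04) rose, and no gene of that list fell. Of the proteases and accessory proteins of fusion, LONP1 (0.38) and the prohibitin PHB2 (0.10) rose, while its partner PHB1 (-0.13) and the rhomboid protease PARL (-0.14) fell. Of the genes listed for mitochondrial mass, the porin VDAC2 (0.36) and the import receptor TOMM20 (0.17) rose, while the import channels TOMM40 (-0.14) and TIMM23 (-0.13) fell. Of the nuclear factors of biogenesis, the corepressor NRIP1 (0.33) and the transcription factor YY1 (0.09) rose and the acetyltransferase KAT2A (-0.22) fell. The transport adaptor TRAK1 (0.16) rose. Of the cristae proteins, MICOS10 (-0.18) and MICOS13 (-0.165) fell. Of the genes that bear on fission, 3 of 19 fell, among them MTFP1 (-0.15) and MTFR1 (-0.13), and none rose. Of the genes for mitochondrial DNA and RNA, the terminator family member MTERF3 (-0.16), the helicase SUPV3L1 (-0.17) and the RNA processing enzyme ELAC2 (-0.165) fell and none rose, out of 24. Of the mitochondrially encoded messages COX2 (-0.19) and COX3 (-0.10) fell.

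The oocyte markers were summarised by their mean log2 CPM. It was 3.91 ± 0.30 in Nanoplastics and 3.92 ± 0.32 in Control libraries (SD, n = 6 each, exact two-sided permutation p = 0.948). Of the 22 tested markers in this mean, 3 passed the test along it, and the most abundant, UCHL1, had a slope of 0.03 (SE 0.12). How far the mean reflects the proportion of oocyte RNA was not tested. None of the 10 genes passed the test along the marker mean, beside 0.0569% of all genes. That is 7 genes, and 3 of them are markers within the mean. The 7 genes behind that share became 0 without Nanoplastics 2, 3 or 5 or Control 3 or 5, and 3 without Control 6. PPARGC1A had a slope of 0.75 (SE 0.30, 95% interval 0.11 to 1.39, unadjusted p = 0.025, adjusted p = 0.403), and 11% of all genes had an unadjusted p under 0.05 along this score. Its correlation with the oocyte markers was r = 0.70 and rho = 0.60 (permutation p = 0.0102, 0.296 adjusted over all genes, of which 0% passed), 0.77 in Nanoplastics and 0.67 in Control libraries, and 0.50 without Nanoplastics 3 and Control 3. The slope remained positive, from 0.58 to 0.91, when any 1 library was left out.

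Along the mean log2 CPM of the mitochondrially encoded messages, none of the 10 passed the test, beside 5.21% of all genes. TFAM had a slope of 0.70 (SE 0.36, adjusted p = 0.262), MFN1 one of 0.57 (SE 0.24, adjusted p = 0.172) and FIS1 one of 0.57 (SE 0.25, adjusted p = 0.185). Control 5 had the highest mean of all libraries (10.10). Without Control 5 the slopes were 0.47 for TFAM, 0.32 for MFN1 and 0.42 for FIS1. NRF1 had a slope of -0.59 (SE 0.34, adjusted p = 0.323). Of the 132 nuclear genes in the lists 9 passed (6.82%), with the RNA-processing phosphorylase PNPT1 (1.40), the transcription factor TFB2M (1.08) and TIMM23 (0.98) upwards and LONP1 (-2.03) downwards. Without Nanoplastics 6 no gene passed along this score.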

How the data were processed

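Per the labels' protocols, each library was made from the RNA of 50 complexes and read from both ends over 150 bases. The submitters' processing notes name Trim Galore 0.4.5, STAR 2.5.4b and DESeq2. No source used here states the counting tool, its strand setting or the genome build, so reads of genes that overlap a neighbour (OPA1, DNM1L, TFAM, POLG and PPARGC1A, by the RefSeq table of ARS-UCD2.0) cannot be assigned with certainty. The deposited table held raw counts per gene. The authors' deposited contrast table held p-values, adjusted p-values and log2 fold changes. Its 4 columns of other groups were not used.

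After 74 exact copies were dropped, filterByExpr (minimum count 10, minimum total 15, 6 libraries) kept 12311 of 17983 rows. Counts were scaled by TMM and fitted with edgeR 4.0.16 in R 4.3.3 (quasi-likelihood, two-sided, Benjamini-Hochberg, threshold 0.05), and CPM are TMM-scaled. Summed marker levels are per 1000000 of all counts, over all rows found. Log2 CPM used a prior count of 2. Intervals and SEs are those of the fit. Slopes were fitted with the group as a term and each of 3 scores. Correlations used 100000 permutations for all genes. Levels are not compared between genes, since no transcript lengths were used here, and for the same reason levels per coding length and promoter motifs were not computed. Genes similar in abundance are the nearest 500.

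The 10 genes, the lists and the scores were chosen with earlier results of these data known. The text names the 10 genes, the most abundant and the smallest-p gene of each list, list genes that passed along a score, and each gene's nearest neighbour. A few genes that this rule names are not reported here. The labels call the samples independent, and chi-square over its degrees of freedom was at least 5.45 between any pair of libraries in a group. P-values measure the spread between groups of complexes, with batches mixed. Values within batches could not be given. Alternatives were DESeq2 1.42.0, limma 3.58.1 (voom), other scaling and filters, added covariates, a replicate block and each library left out.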

Additional observations from a re-analysis of the deposited data

Results flagged for a closer look

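DNM1L in Control 6 stood apart from the other Control libraries, at a log2 CPM of 6.47 against 6.26 to 6.31 in the other 5 (88.3 CPM). It was the 1 value so marked among 28 groups of values examined, where chance marks about 1 in 20. Without Control 6 the log2 fold change of DNM1L was 0.09, and it did not pass the test.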

How the results depend on the processing

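For the treatment, 0 genes passed in each of 19 alternatives, and the smallest adjusted p of any of the 10 genes over them was 0.933. The sign of some near-zero log2 fold changes depended on the setting: MFN2 was 4.6e-05 with no count filter and 0.0038 with the oxygen score as a covariate, FIS1 was 0.022 with that covariate, and TFAM was 0.0012 by limma-voom and 0.0074 with that covariate. With each library left out in turn, the log2 fold change ran from -0.0039 to 0.089 for MFN1, -0.020 to 0.019 for MFN2, -0.0048 to 0.054 for OPA1, -0.054 to 0.037 for FIS1, -0.023 to 0.056 for MFF, -0.078 to 0.047 for TFAM, -0.26 to -0.073 for PPARGC1A and 0.0053 to 0.070 for POLG.

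Along the oxygen score, 688 genes passed without the 2 libraries farthest from the median, and 762 (without Nanoplastics 1) to 2334 (without Control 5) with 1 library left out. The slope of POLG was 0.0045 with no group term and 0.0033 without the 2 libraries. With each library left out it ran from -0.051 to 0.011 for MFN1, -0.024 to 0.0011 for OPA1, -0.035 to 0.014 for MFF and -0.028 to 0.0060 for POLG. The test of the difference between the slopes of the groups gave 0 to 10 genes, with 10 without Control 2.

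Along the oocyte markers, 15 genes passed with no group term, 0 without the 2 farthest libraries (where the slope of NRF1 was -0.065) and 0 to 9 with 1 library left out, when the slopes ran from -0.067 to 0.030 for DNM1L and -0.17 to 0.030 for FIS1. Along the mitochondrially encoded messages, 1135 genes passed with no group term, 0 without the 2 farthest libraries (where MFN2 had a slope of 0.030 and PPARGC1A one of 0.98), and 0 (without Nanoplastics 6) to 1001 (without Control 6) with 1 left out. There the slopes ran from -0.10 to 0.11 for MFN2, -0.45 to 0.37 for PPARGC1A and -0.40 to 0.0057 for POLG, and MFN2 was 0.016 with no count filter. The difference between the groups ran from -0.688 to 0.216 for the total count, in units of 1000000 counts, and from -0.117 to 0.0915 for the oocyte marker mean.

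Deviations of libraries with equal replicate numbers correlated at -0.26 to 0.43, which does not show whether such libraries share a batch. The oocyte marker mean was highest in replicate 3 of both groups (4.43 in Nanoplastics 3 and 4.43 in Control 3). With the replicate number as a block, 0 genes passed for the treatment and 1738 along the oxygen score. Along the oocyte markers 660 passed, beside 7 without the block, and along the mitochondrially encoded messages 1. With this block the slope along the oxygen score was 0.0019 for MFN2 and 0.0070 for POLG. With the block the slope along the oocyte markers was 0.14 for MFN1, -0.13 for MFN2, 0.22 for DNM1L, 0.49 for FIS1, 0.018 for MFF, 0.59 for TFAM, -0.93 for NRF1 and -0.12 for POLG. The causes of these changes were not tested. Depth limits PPARGC1A most, with 25 to 53 counts per library.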
